A study of Homo sapiens with 10 samples.

Results

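Small nucleolar RNA host genes are transcribed into spliced RNAs whose introns carry small nucleolar RNAs (snoRNAs), the guides that direct chemical modification of ribosomal RNA. The 9 members described here were chosen by symbol, not by a threshold on their values: GAS5, ZFAS1, SNHG1, SNHG5, SNHG6, SNHG7, SNHG8, SNHG12 and SNHG15. All 9 were found among the 27942 genes of the table of FPKM (fragments per kilobase of exon, scaled to the mapped reads of each library), and all 9 were among the 12820 whose mean over the libraries reached 0.5 FPKM, the filter on low values. They were measured in MCF10A, a non-tumorigenic human mammary epithelial cell line, by messenger RNA sequencing after 24 h on polyacrylamide gels coated with fibronectin. The study asked how the stiffness of the gel, and on the softest gel the glucose supply, alter these cells. At 5 mM glucose the gels had a stiffness of 400 Pa, 1 kPa, 6 kPa or 60 kPa, and cells on 400 Pa were also kept at 25 mM glucose. Every group shared a medium with horse serum, epidermal growth factor, insulin, hydrocortisone and cholera toxin. This gives 5 groups with 2 libraries each, described as biological replicates in the labels, every library being a pool of 4 gel cultures of this single line. The columns carry no replicate number, so the libraries of a group are named here by depth, deeper and shallower, and paired values are given in that order.

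Mature host RNAs carry no conserved protein, and for most of this family the snoRNAs in the introns are the best known products. Box C/D snoRNAs guide methylation of the ribose and box H/ACA snoRNAs guide pseudouridylation. Transcription of many hosts starts at a run of pyrimidines, the terminal oligopyrimidine (TOP) signature that they share with ribosomal protein mRNAs, whose translation follows growth signals through mTORC1. The spliced RNAs are loaded onto ribosomes and then degraded by nonsense-mediated decay, so that conditions that slow translation let them accumulate. GAS5 was first cloned as a transcript that accumulates in growth-arrested cells, and it has been described as a decoy of the glucocorticoid receptor, the receptor of the hydrocortisone in this medium.

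The first bases of these RNAs are shown because the TOP signature is what ties the family to ribosomal protein genes. RefSeq's promoter table (GRCh38.p14) held 7 of the 9 members; SNHG6 and SNHG15 were not in it. Each window below runs from 50 bases before to 50 bases after the annotated start, 5′ to 3′ on the transcribed strand. Capitals mark runs of 5 or more C or T that touch the stretch from 5 before to 15 after the start, and the letters TATAA where they lie 40 to 21 bases before it.
ZFAS1 (chr20:49278592-49278691, plus strand): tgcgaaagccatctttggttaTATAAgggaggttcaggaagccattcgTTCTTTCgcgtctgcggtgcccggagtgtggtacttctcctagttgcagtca
SNHG1 (chr11:62855836-62855935, minus strand): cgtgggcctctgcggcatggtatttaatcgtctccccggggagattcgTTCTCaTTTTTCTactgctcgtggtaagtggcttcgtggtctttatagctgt
SNHG5 (chr6:85678684-85678783, minus strand): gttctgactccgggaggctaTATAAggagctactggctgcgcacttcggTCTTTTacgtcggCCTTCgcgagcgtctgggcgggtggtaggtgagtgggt
SNHG7 (chr9:136728135-136728234, minus strand): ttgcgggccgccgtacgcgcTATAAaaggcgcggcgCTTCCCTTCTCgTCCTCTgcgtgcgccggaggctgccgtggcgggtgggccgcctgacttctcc
SNHG8 (chr4:118278712-118278811, plus strand): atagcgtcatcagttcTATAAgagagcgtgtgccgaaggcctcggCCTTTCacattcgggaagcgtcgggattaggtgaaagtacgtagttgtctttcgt
SNHG12 (chr1:28581824-28581923, minus strand): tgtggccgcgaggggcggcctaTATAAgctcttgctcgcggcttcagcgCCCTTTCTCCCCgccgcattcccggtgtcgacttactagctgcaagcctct

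A pyrimidine run near the start was present in 6 of the 7 members in the table, and in 46.6% of the 35116 promoters of the table. On the other strand the same stretch held a run in 2 of 7 members and in 43.0% of promoters. TATAA lay 28 to 34 bases before the start in 5 of 7 members, against 3.77% of all promoters in the same stretch, and was chosen as a motif after these sequences had been seen. On the other strand it was found in 1 member, ZFAS1, where it overlaps the copy shown, and in 1.59% of promoters. GAS5 had neither motif and SNHG1 had no TATAA. The RefSeq window of GAS5 holds no start of a GENCODE transcript (release 29, GRCh38), and 6 of the 29 GENCODE transcripts of GAS5 share 1 other start, whose first 40 bases follow, with the run of C and T at the first base in capitals.
GAS5 (chr1:173867950-173867989, minus strand): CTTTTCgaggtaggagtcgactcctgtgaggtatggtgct

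By class, GAS5, ZFAS1, SNHG1, SNHG5 and SNHG6 are mainly box C/D hosts, while SNHG7, SNHG8, SNHG12 and SNHG15 carry box H/ACA snoRNAs. The tables list 33 snoRNA entries inside the 9 hosts, 59 to 133 bases long, with 11 in GAS5, 8 in SNHG1, 4 in SNHG12, 3 in ZFAS1, 2 each in SNHG5 and SNHG7 and 1 each in the other hosts. In the hg19 coordinates of the files, SNHG8 is the shortest gene (chr4:119199917-119200978, 271 exon bases counted), GAS5 spans chr1:173833037-173837129 with 587 exon bases counted, and ZFAS1 spans chr20:47895179-47905795 with 498. Counting took no account of strand. The span of an antisense neighbour overlaps that of 4 members, GAS5-AS1 with GAS5 by 43 bases, MCMDC2 with SNHG6 by 359, FAM69B with SNHG7 by 125 and TRNAU1AP with SNHG12 by 8, and reads there cannot be told apart by strand. The neighbours were lower than their host in mean level in every case (18.5 FPKM for GAS5-AS1, 3.34 for MCMDC2, 2.55 for FAM69B and 10.1 for TRNAU1AP).

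Depth ranged from 2.98 M (recovered from the FPKM values) to 28.6 M mapped reads per library, with both 5 mM libraries on 400 Pa the deepest. Mammary epithelial markers were high in all 10 libraries (summed level of 10 markers 2233 to 3433 FPKM, led by KRT5), and summed leukocyte, fibroblast and endothelial markers stayed at or below 21.1, 1.24 and 1.28 FPKM, with CD3E, COL1A2, COL3A1 and VWF at 0 in all 10. The summed epithelial markers were lower at 60 kPa (2233 and 2497 FPKM across its libraries) and at 25 mM glucose (2270 and 2272) than on 400 Pa at 5 mM (3251 and 3385), and the summed leukocyte markers, led by CD68, were lower too (8.88 and 13.0, 14.6 and 15.2, against 20.6 and 21.1). Their part in the host differences was not tested. One technical measure moves with the groups: how a library's log2 values deviate with the GC content of the transcript. The Spearman correlation of deviation and GC content was 0.61 and 0.66 on 400 Pa, 0.62 and 0.60 on 1 kPa, -0.57 and -0.60 on 60 kPa, and -0.65 and -0.66 at 25 mM, and the 6 kPa libraries stood apart from each other at 0.62 and -0.31. The main differences are therefore given again with each library corrected for its GC trend. For the 10 epithelial markers, the median log2 difference from 400 Pa at 5 mM was -0.38 both on 60 kPa and at 25 mM glucose. With GC correction it was -0.21 and -0.06. In the limma test described below, 0 of the 10 were higher and 6 lower on 60 kPa, against 15.1% and 6.15% of all genes. At 25 mM glucose 2 were higher and 5 lower, against 17.6% and 6.84%. In bulk RNA, a change in the number of cells that make a transcript and a change in the RNA per cell cannot be told apart.

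Levels per length differed widely among the hosts. SNHG5 was the highest (mean over 10 libraries 183 FPKM, rank 208 among all genes), followed by GAS5 (166 FPKM), ZFAS1 (157 FPKM) and SNHG8 (131 FPKM). SNHG6 (64.8 FPKM), SNHG1 (36.0 FPKM) and SNHG7 (23.0 FPKM) were intermediate. SNHG12 (14.8 FPKM) and SNHG15 (11.8 FPKM) were the lowest. Read support ran from 32 reads, for SNHG15 in the shallower 6 kPa library, to 2764 for GAS5 in the deeper 400 Pa library. Summed over the 9 hosts, the level lay between 645 and 783 FPKM in the 8 libraries at 5 mM glucose and was 1026 and 1053 FPKM at 25 mM. Their share of all exon reads was 0.0543 to 0.0658% in the former and 0.0811 and 0.0838% in the latter.

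**Figure D1:**
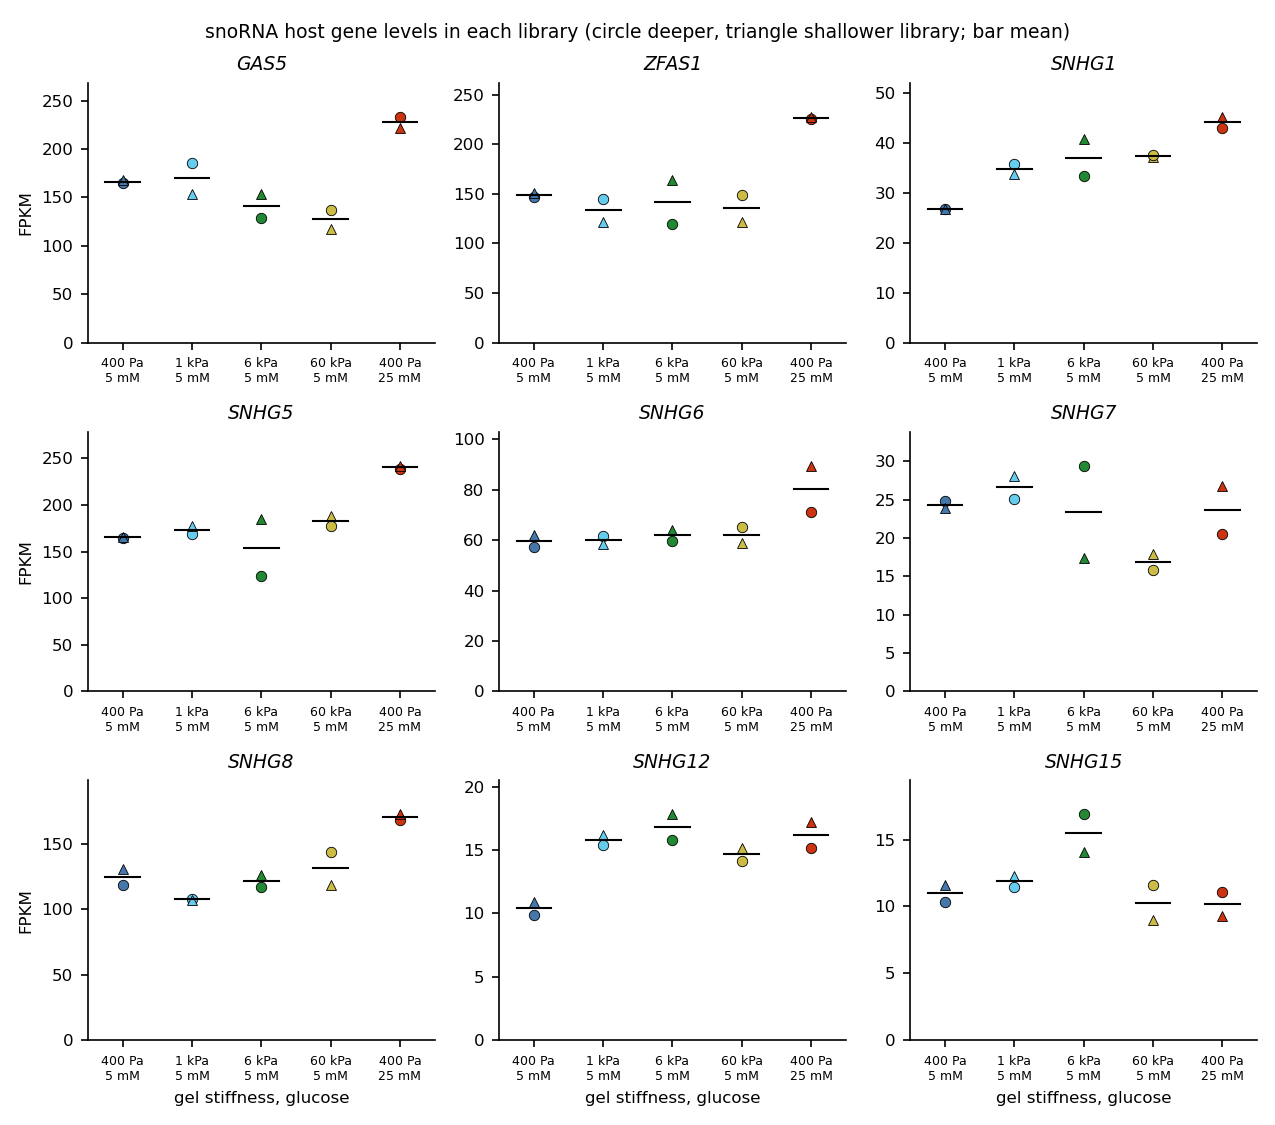
FPKM of each host gene (y axes, from 0) in every library by gel stiffness and glucose (x axes), with 1 colour per group, circles for the deeper and triangles for the shallower library and a bar at the mean of 2. GAS5, ZFAS1, SNHG1, SNHG5, SNHG6 and SNHG8 were highest in both libraries at 25 mM glucose, while SNHG7, SNHG12 and SNHG15 were not.

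The first comparison is that of glucose on the 400 Pa gel. Of the 9, GAS5, ZFAS1, SNHG1, SNHG5, SNHG6, SNHG8 and SNHG12 were higher at 25 than at 5 mM glucose and passed the test (7 of 9 higher, 0 of 9 lower), limma on log2(FPKM + 1) with Benjamini-Hochberg adjusted p under 0.05 over all 12820 genes. Among all genes tested, 17.6% were called higher and 6.84% lower (2259 and 877 genes, or 1726 and 1774 after TMM centring, a scaling by the trimmed mean of log ratios). No host was lower at an unadjusted p under 0.05 or with voom, limma's weighted fit of recovered reads. The median log2 difference was 0.45 over the 9 hosts and 0.08 over all genes. SNHG7 and SNHG15 did not pass. The libraries of both groups did not overlap, with higher values at 25 mM, for the 7 that passed, as for 43.9% of all genes. After correction for GC content, SNHG1 and SNHG12 passed (2 of 9, where 2.72% of all genes were called higher), and the median over the 9 hosts was 0.19.

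ZFAS1, a box C/D host whose 5′ end lies beside that of ZNFX1, stood at 146 and 151 FPKM on 400 Pa at 5 mM glucose and at 225 and 228 FPKM at 25 mM. Its groups were separated widely compared with the distance between libraries, and the log2 difference was 0.60 (SE 0.16, adjusted p 0.0260, limma). SNHG5, which carries the SNORD50 guides, stood at 165 and 165 FPKM and rose to 238 and 242 FPKM (log2 difference 0.54, SE 0.15, adjusted p 0.0359, limma). GAS5 stood at 165 and 168 FPKM and rose to 233 and 222 FPKM (log2 difference 0.45, SE 0.12, adjusted p 0.0315, limma). For these 3 genes no 5 mM library of any stiffness reached the level of either 25 mM library. With GC correction the log2 differences were 0.30 for ZFAS1 (adjusted p 0.133, limma), 0.19 for SNHG5 (adjusted p 0.337) and 0.14 for GAS5 (adjusted p 0.325), and none of the 3 passed.

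SNHG1, which carries 8 box C/D snoRNAs in this annotation, showed the largest difference of the 9 without GC correction. Its level was 26.6 and 26.8 FPKM at 5 mM and 43.0 and 45.2 FPKM at 25 mM glucose, a log2 difference of 0.70 (SE 0.11, adjusted p 0.00669, limma). It passed with GC correction as well, at a smaller log2 difference of 0.39 (SE 0.06, adjusted p 0.0164). SNHG6, host of SNORD87, stood at 57.2 and 62.1 FPKM at 5 mM and 71.1 and 89.6 FPKM at 25 mM (log2 difference 0.42, SE 0.12, adjusted p 0.0389, limma). The groups did not overlap, and with GC correction the log2 difference was -0.01.

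Among the H/ACA hosts, SNHG8, host of SNORA24, rose from 119 and 131 FPKM to 169 and 173 FPKM (log2 difference 0.45, SE 0.11, adjusted p 0.0180, limma), and with GC correction its log2 difference was -0.01. SNHG12 was 9.90 and 10.9 FPKM at 5 mM and 15.2 and 17.2 FPKM at 25 mM glucose, a log2 difference of 0.59 (SE 0.12, adjusted p 0.0107, limma). GC correction raised that to 0.72 (SE 0.12, adjusted p 0.0170). SNHG12 was low in the 400 Pa libraries at 5 mM compared with every other library, not high at 25 mM alone. SNHG7, with the SNORA17 pair, stood at 24.9 and 23.9 FPKM at 5 mM and 20.5 and 26.8 FPKM at 25 mM, so its groups overlapped, and the 95% interval of the log2 difference ran from -0.55 to 0.44. SNHG15, host of SNORA9, stood at 10.3 and 11.6 FPKM against 11.1 and 9.30 FPKM, with an interval from -0.45 to 0.25.

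**Figure D2:**
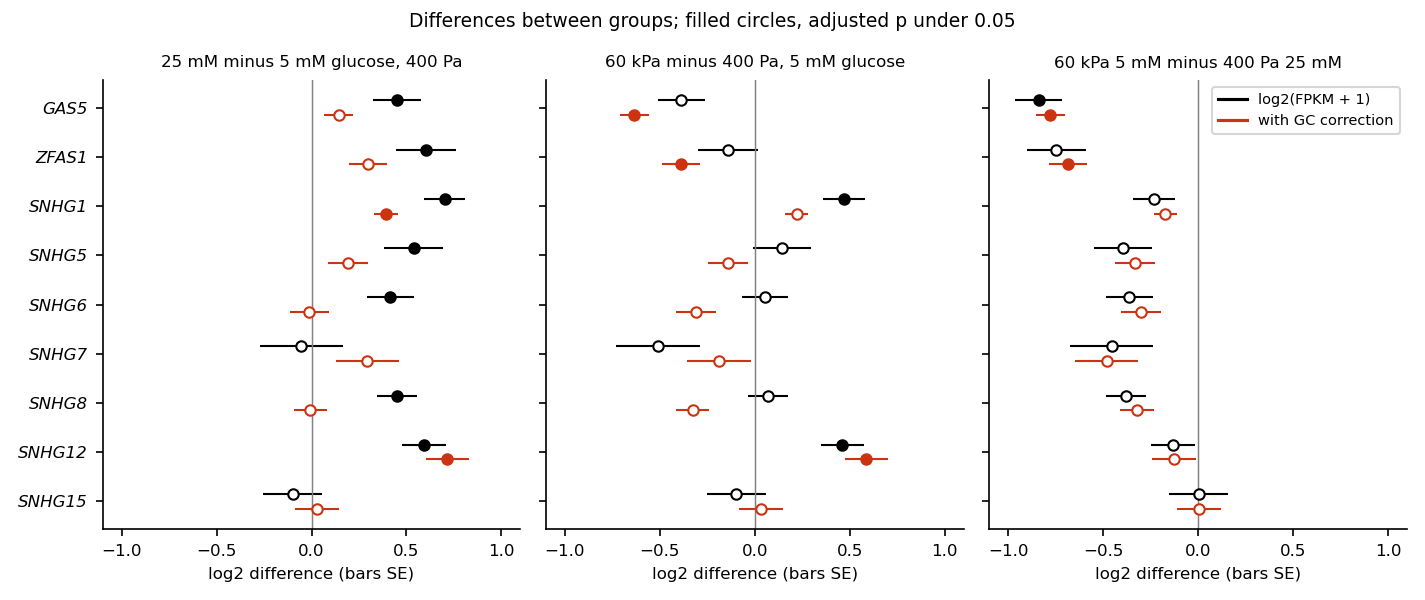
Log2 difference (x axes) of each host gene (y axis) in 3 comparisons, as measured (black) and with correction for GC content (red), with bars of 1 SE and filled circles where the adjusted p was under 0.05. In the glucose comparison 7 black and 2 red circles are filled, and GAS5 is filled in both colours where 60 kPa is set against 25 mM glucose.

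Calls in the glucose comparison rest on few libraries. Without the deeper or without the shallower 400 Pa library none of the 9 hosts passed, and without the shallower or the deeper 25 mM library 0 and 2 passed (SNHG1 and SNHG12 in the latter). All genes tested showed the same loss, with 0 called in either direction without either 400 Pa library, and in those fits the lone library of a group is assumed to vary like the other groups. Over the 10 fits that each left out 1 library, the log2 difference stayed within 0.67 to 0.74 for SNHG1, 0.58 to 0.63 for ZFAS1, 0.53 to 0.55 for SNHG5 and 0.25 to 0.58 for SNHG6. SNHG5 and SNHG6 passed in 2 of these 10 fits. In the authors' deposited table, which counts longer transcripts for 7 of these 9 genes, 6 hosts were higher with an adjusted p under 0.05 for glucose, against 13.9% of the 19078 genes with a fold change there, ZFAS1 with the lowest (log2 fold change 0.51, adjusted p 1.59e-07), while SNHG12 did not (0.49, adjusted p 0.0799).

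The next comparison is that of stiffness. On 60 kPa against 400 Pa gels at 5 mM glucose, SNHG1 and SNHG12 were higher and passed the test (2 of 9 higher, 0 of 9 lower, limma), where 15.1% of all genes were called higher and 6.15% lower (1934 and 788 genes, or 1480 and 1381 after TMM centring). Both 60 kPa libraries were below both 400 Pa libraries for GAS5 and SNHG7, as for 29.4% of all genes, and above them for SNHG1, SNHG5 and SNHG12, as for 41.3%. GAS5 and SNHG7 had an unadjusted p under 0.05 and did not pass after adjustment, while voom called both of them lower (-0.51, adjusted p 0.000347, and -0.68, adjusted p 0.00644) and SNHG1 higher, but not SNHG12, where 19.7% of all genes were called in each direction. The other 5 hosts had log2 differences from -0.14 to 0.14. The median over the 9 was 0.05, against 0.06 over all genes, and -0.07 against -0.04 after TMM centring. With GC correction it was -0.19, against 0.02 over all genes. With GC correction the set of calls was another one, SNHG12 higher (5.64% of all genes) and GAS5 and ZFAS1 lower (4.4%).

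SNHG1 was 26.6 and 26.8 FPKM on 400 Pa, 35.8 and 33.7 on 1 kPa, 33.3 and 40.7 on 6 kPa and 37.5 and 37.2 on 60 kPa. Every library on a gel stiffer than 400 Pa was above both 400 Pa libraries, and the log2 difference of 60 kPa from 400 Pa was 0.47 (SE 0.11, adjusted p 0.0185, limma) and 0.22 with GC correction (adjusted p 0.0584). SNHG12 was 9.90 and 10.9 FPKM on 400 Pa, 15.4 and 16.2 on 1 kPa, 15.8 and 17.8 on 6 kPa and 14.2 and 15.2 on 60 kPa. It too was lowest in both 400 Pa libraries, with a log2 difference at 60 kPa of 0.46 (SE 0.12, adjusted p 0.0238, limma) and of 0.59 with GC correction (adjusted p 0.0159). In the authors' deposited table neither SNHG1 (0.36, adjusted p 0.0513) nor SNHG12 (0.38, adjusted p 0.228) had an adjusted p under 0.05 on 60 kPa. At 1 kPa the log2 difference from 400 Pa was 0.56 for SNHG12 (adjusted p 0.602, limma) and 0.36 for SNHG1 (adjusted p 0.800), and neither passed. No gene of the 12820 passed in that comparison (0% called), where 776 genes, SNHG1 and SNHG12 among them, had an unadjusted p under 0.05 and voom called 111 genes higher and 71 lower, none of them a host. The steps from 1 to 6 kPa (0.195% of genes called) and from 6 to 60 kPa (0.203%) gave no host call by limma or voom, with 1 host, SNHG15, at an unadjusted p under 0.05 in each. On 6 kPa, SNHG12 had a log2 difference from 400 Pa of 0.64 (adjusted p 0.0636, limma), where 0.0546% of genes were called higher. No host passed there by limma or voom, with 3 (SNHG1, SNHG12 and SNHG15) at an unadjusted p under 0.05, while SNHG1 (0.40) and SNHG12 (0.72) passed with GC correction, where 0.949% of genes were called higher.

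GAS5 had its lowest mean on 60 kPa. Its level was 165 and 168 FPKM on 400 Pa, 185 and 154 on 1 kPa, 129 and 154 on 6 kPa and 137 and 118 on 60 kPa. The 60 kPa libraries were below both 400 Pa and both 1 kPa libraries and overlapped those of 6 kPa. The log2 difference of 60 kPa from 400 Pa was -0.39 (SE 0.12, adjusted p 0.0546, limma), just outside the threshold, and -0.63 with GC correction (SE 0.08, adjusted p 0.00205). Against 1 kPa it was -0.41 (adjusted p 0.0466, limma), and 5.39% of genes were called lower there. Over the 8 libraries at 5 mM, GAS5 had a slope of -0.20 log2 units per 10-fold of stiffness (SE 0.06, adjusted p 0.0306, limma), the 1 host that passed, where 6.55% of genes were called lower. That call was lost in 5 of the 8 fits that left out 1 of these libraries, with slopes from -0.24 to -0.16. In the authors' deposited table the log2 fold change of GAS5 on 60 kPa was -0.48 (adjusted p 7.45e-06).

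SNHG7 was 24.9 and 23.9 FPKM on 400 Pa, 25.1 and 28.1 on 1 kPa, 29.5 and 17.4 on 6 kPa and 15.8 and 17.9 on 60 kPa. Its 6 kPa libraries lay nearly as far apart as the highest and the lowest library of the other groups, they have opposite trends with GC content, and SNHG7 has the highest GC content of the 9 (61.9%). The log2 difference of 60 kPa from 400 Pa was -0.51 (SE 0.22, adjusted p 0.129, limma), and it was -0.19 with GC correction. The authors' deposited table gives -0.63 (adjusted p 0.00982). Without either 6 kPa library the log2 differences of 60 kPa from 400 Pa stayed the same, while more of all genes were called in each direction. Which hosts passed changed as well. That is not read as a result about the hosts, because the 6 kPa group then held 1 library. Without either 400 Pa or either 60 kPa library, no host passed.

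ZFAS1, SNHG5, SNHG6, SNHG8 and SNHG15 did not pass in a comparison of stiffness at 5 mM when all libraries were fitted with limma on log2(FPKM + 1) without GC correction. ZFAS1 ranged from 119 to 164 FPKM over the 8 libraries at 5 mM, both ends being 6 kPa libraries, and its log2 difference at 60 kPa was -0.14 (95% interval -0.50 to 0.22). It passed as lower with GC correction (-0.39, adjusted p 0.0470, limma), where 4.4% of genes were called lower. It also passed in limma on the deposited log2 values (-0.18, adjusted p 0.0221), where 3207 of 12720 genes were called lower. The authors' deposited table gives -0.21 (adjusted p 0.118) for ZFAS1, which did not pass there. SNHG5 was 124 and 185 FPKM on 6 kPa and lay between 165 and 188 FPKM in the other 6 libraries at 5 mM. SNHG6 held between 57.2 and 65.2 FPKM in all 8, the narrowest range of the family relative to its level. Its slope over stiffness passed as lower with GC correction (-0.14, adjusted p 0.0444, limma), where 439 of 12650 genes were called lower. SNHG8 was 108 and 107 FPKM on 1 kPa and 117 to 144 FPKM elsewhere at 5 mM, and 60 kPa differed from 1 kPa by 0.28 in log2 (adjusted p 0.0868, limma). SNHG15 was highest on 6 kPa, at 16.9 and 14.1 FPKM, with no other library above 12.3 FPKM, but its reads there numbered 64 and 32, and the log2 difference from 400 Pa was 0.46 (adjusted p 0.242, limma). Without the shallower 6 kPa library, the log2 difference of 60 from 6 kPa was 0.56 for SNHG5 and -0.68 for SNHG15. With all libraries it was 0.27 and -0.55.

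Because both comparisons above use the same 400 Pa libraries, 60 kPa at 5 mM was also set directly against 400 Pa at 25 mM glucose. The groups differ in both stiffness and glucose, whose parts cannot be told apart here. These 4 libraries have GC trends of the same sign, and the correlation of log2 difference and GC content across genes was 0.12, compared with -0.72 for stiffness and -0.78 for glucose. GAS5 was lower on 60 kPa, at 137 and 118 FPKM against 233 and 222, with a log2 difference of -0.84 (SE 0.12, adjusted p 0.0147, limma). It was the only host that passed in this fit, where 1.32% of all genes were called lower, and it passed with GC correction too (-0.78, adjusted p 0.000928). That call was lost without the shallower 60 kPa library and without either 25 mM library, with log2 differences from -0.95 to -0.73 over the 10 fits.
ZFAS1, at 149 and 122 FPKM against 225 and 228, had a log2 difference of -0.74 (SE 0.16, adjusted p 0.0581, limma), and with GC correction it passed (-0.68, adjusted p 0.00634), where 3.2% of genes were called lower. SNHG8, SNHG5 and SNHG6 had log2 differences of -0.38, -0.39 and -0.36 and none of the 3 passed. The groups did not overlap, with lower values on 60 kPa, for 7 hosts, all but SNHG12 and SNHG15, as for 24.9% of all genes. SNHG1 (-0.23), SNHG12 (-0.13) and SNHG15 (0.00) were closest to no difference. SNHG7 was at -0.46, with an interval from -0.95 to 0.04.

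Set against 25 mM glucose, the softer gels at 5 mM gave more calls. Here too stiffness and glucose both differ, and their parts cannot be told apart. On 1 kPa, 4 of 9 hosts were lower than at 25 mM on 400 Pa, where 17.7% of genes were called lower: GAS5 (log2 difference -0.43, adjusted p 0.0385, limma), ZFAS1 (-0.77), SNHG6 (-0.41) and SNHG8 (-0.66). On 6 kPa, 4 of 9 were lower, against 7.12% of genes: GAS5 (-0.69, adjusted p 0.0191, limma), ZFAS1 (-0.69), SNHG5 (-0.66) and SNHG8 (-0.48). These comparisons share the 25 mM libraries, so they are not independent of each other or of the comparison with 400 Pa. GAS5, ZFAS1 and SNHG8 appear in both lists. With GC correction 0 hosts were lower on 1 kPa, where 0.877% of genes were called lower. On 6 kPa 2 were, GAS5 (-0.43) and ZFAS1 (-0.43), against 2.43% of genes, with SNHG15 higher (0.51), against 3.38%.

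**Figure D3:**
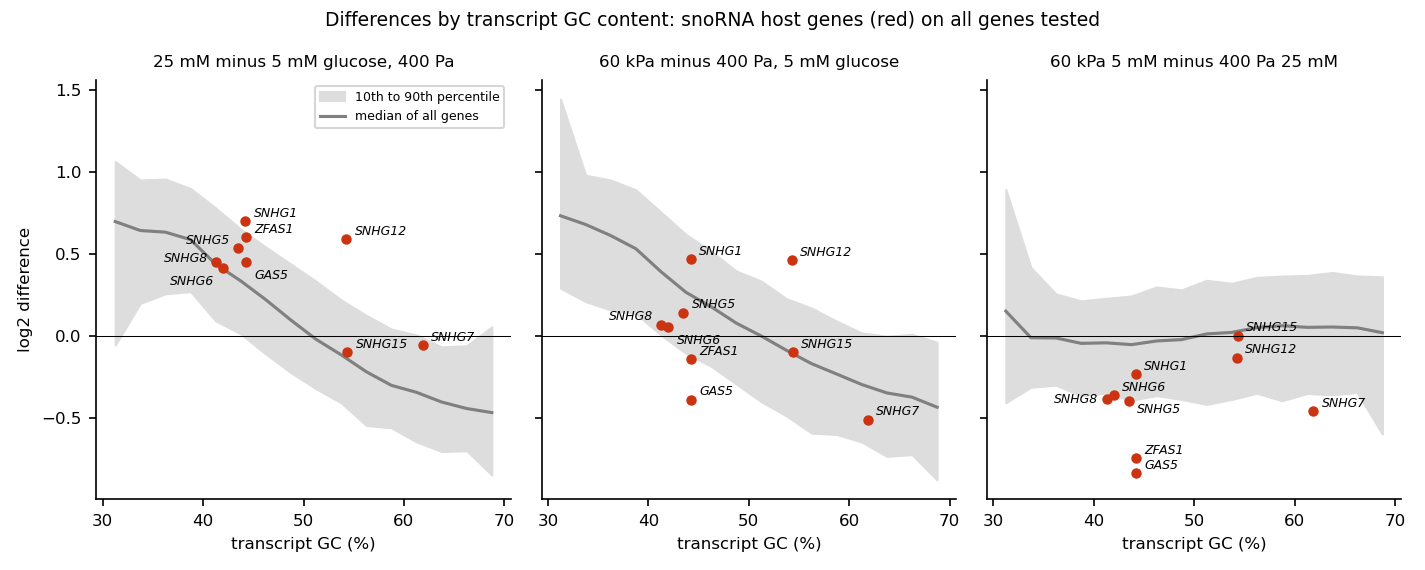
Log2 difference (y axis) against transcript GC content (x axes, %) in 3 comparisons, with the median of all genes per 2.5% of GC (grey line), their 10th to 90th percentile (band) and the 9 host genes (red points). The median falls with GC content in the glucose and stiffness panels and is nearly level in the third, where GAS5 (-0.84) and ZFAS1 (-0.74) lie far below the band, SNHG7 (-0.46) lies below it and SNHG5, SNHG6 and SNHG8 lie at its lower edge.

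GC content separates the hosts into groups that the rule did not use. GAS5, ZFAS1, SNHG1, SNHG5, SNHG6 and SNHG8 have 41.3 to 44.3% GC, below the median of 49.3% for the genes tested, SNHG12 and SNHG15 have 54.3 and 54.4%, and SNHG7 has 61.9%. All 6 hosts of low GC content were called higher at 25 mM glucose, and of the 3 of high GC content only SNHG12 was. For glucose, the median log2 difference of all genes was 0.44 around 41.25% GC and 0.34 around 43.75%. SNHG6 (0.42) and SNHG8 (0.45) lay close to the first. GAS5 (0.45), SNHG5 (0.54) and ZFAS1 (0.60) lay above the second but below the 90th percentile there, 0.65. Of the 6, only SNHG1 (0.70) lay above the 90th percentile of genes of its GC content. The share of genes of such GC content that were called is not given here. SNHG12 lay above the 90th percentile of genes of its GC content in the glucose and stiffness comparisons, where SNHG15, of nearly the same GC content, lay close to the median.

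Over the 10 libraries, SNHG6 followed the mean of the other 8 hosts most closely (Pearson r 0.87 on log2(FPKM + 1)), then ZFAS1 (r 0.82). GAS5, SNHG1, SNHG5 and SNHG8 had r of 0.62 to 0.70, SNHG12 had 0.41, SNHG7 had -0.11 and SNHG15 had -0.30. These values describe 10 libraries that share groups, depth differences and GC trends, and no p is attached to them. The genes outside the family whose level was most like the mean profile of the 9 hosts, among 7693 genes averaging 5 FPKM or more, were SPRED2 (r 0.95), IFRD1 (r 0.95), SLFN5 (r 0.94), NEBL (r 0.92) and TBC1D5 (r 0.92). Each of the 5 was highest in the 25 mM libraries, as for NEBL at 9.17 and 9.96 FPKM against 3.98 to 6.15 FPKM in the other 8 libraries.

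The snoRNAs themselves were scarcely sampled. The 33 snoRNA entries inside the hosts held 1475 reads over all 10 libraries, against 38960 reads counted in the host exons (3.79%). Messenger RNA libraries do not capture mature snoRNAs well, so these reads say little of snoRNA levels. The ratio was highest for SNHG12 (20.8%), SNHG1 (9.90%) and GAS5 (8.02%) and lowest for SNHG5 (0.265%). By library it ran from 3.05%, in the deeper 400 Pa library, to 4.74 and 5.34% in the 60 kPa libraries.

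Few of the other noncoding snoRNA hosts passed the test. For this list and those below, the shares of all genes called were 17.6% higher and 6.84% lower for glucose. On 60 kPa they were 15.1% and 6.15%. With GC correction, 344 and 316 of 12650 genes were called higher and lower for glucose, and 713 and 557 on 60 kPa. Of 24 listed, 21 were in the table and 16 passed the filter, and for glucose 0 rose and 1 fell (median log2 difference 0.11, with GC correction -0.04). The one that fell was DANCR, a noncoding host that restrains differentiation in epidermal progenitors (log2 difference -0.40, adjusted p 0.0372, limma). On 60 kPa 1 rose and 2 fell, SNHG9 (1.34, adjusted p 0.0128, limma) and, downward, DANCR (-0.40) and EPB41L4A-AS1 (-0.48). With GC correction SNHG9 and EPB41L4A-AS1 passed and DANCR did not (-0.29 in both comparisons), and SNHG16, chosen after its values were seen, passed as lower for glucose (-0.35, adjusted p 0.0170, limma). Protein-coding snoRNA hosts changed in both directions. Of 23, 6 rose and 2 fell for glucose and 7 rose and 2 fell on 60 kPa. With GC correction 2 rose and 4 fell for glucose, and 4 rose and 5 fell on 60 kPa. NCL, encoding nucleolin of the nucleolus, was higher in both (0.53, adjusted p 0.0192, and 0.62, adjusted p 0.0112, limma), while EEF2, the translocation factor of translation, was lower in both (-0.47 and -0.61), as was RACK1, a protein of the small ribosomal subunit (-0.30 and -0.40), and these 3 genes passed with GC correction in both.

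Ribosomal protein mRNAs share the TOP signature. Of the 76 tested, 0 rose and 28 fell on 60 kPa (median log2 difference -0.24, with GC correction 0 and 31), and 11 rose and 9 fell at 25 mM glucose (median -0.06, with GC correction 4 and 8). RPL8 fell on 60 kPa by 0.43 on the log2 scale (adjusted p 0.0136, limma) and at 25 mM glucose by 0.48 (adjusted p 0.0100), and with GC correction it was at -0.08 and -0.11 and did not pass. RPL19 was at -0.08 for glucose and fell on 60 kPa by 0.31 (adjusted p 0.0248). Many of these genes have near-identical processed copies in the genome, which makes their counts uncertain. Of 16 translation factors with a TOP start, 5 rose and 3 fell for glucose and 2 rose and 4 fell on 60 kPa. With GC correction 2 rose and 3 fell for glucose, and 1 rose and 6 fell on 60 kPa. NPM1, encoding nucleophosmin, rose in both (0.53 and 0.58 for 60 kPa and 25 mM glucose), and with GC correction it was at 0.11 in both.

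**Figure D4:**
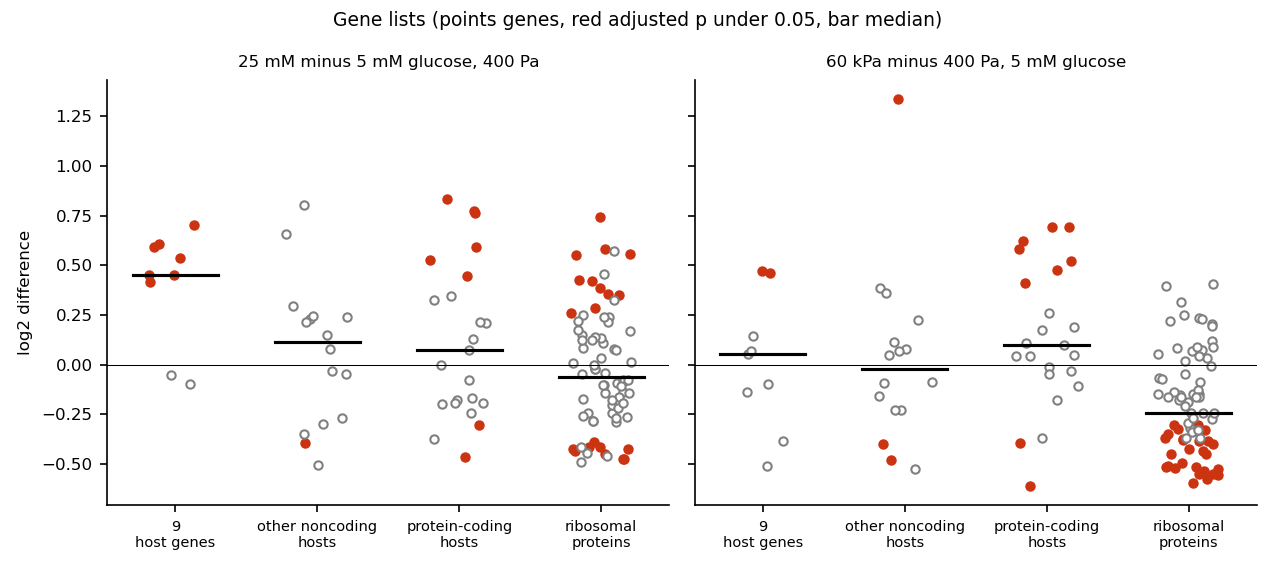
Log2 difference (y axis) of each gene tested in 4 lists (x axes) for glucose (left) and stiffness (right), with red points where the adjusted p was under 0.05 and a bar at the median. The 9 hosts have a median of 0.45 for glucose and 0.05 for stiffness, and the 76 ribosomal protein genes have medians of -0.06 and -0.24.

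Genes of the machinery around the snoRNAs were mixed, where 17.6% of all genes were called higher for glucose and 15.1% on 60 kPa. NOP58, a core protein of box C/D particles, rose at 25 mM glucose by 1.02 on the log2 scale (adjusted p 0.00651, limma) and on 60 kPa by 1.06 (adjusted p 0.00173), and passed with GC correction in both. Of the 5 box C/D proteins, 1 rose and 1 fell (RRP9) for glucose and 1 rose on 60 kPa. With GC correction 1 rose and 0 fell for glucose, and 2 rose and 0 fell on 60 kPa. DKC1, the pseudouridine synthase of H/ACA particles, rose in both comparisons (0.44 and 0.52, with GC correction passing on 60 kPa alone), and 1 and 2 of the 4 proteins of that particle rose. With GC correction 0 of these 4 rose and 1 fell for glucose, and 1 rose and 0 fell on 60 kPa. Of 12 assembly and maturation factors, 3 rose and 1 fell for glucose and 5 rose and 1 fell on 60 kPa, with PHAX, an export adaptor of small RNAs, at 0.68 and 0.77 and RUVBL2, a helicase of snoRNP assembly, at -0.55 and -0.42. With GC correction 0 of the 12 rose and 0 fell for glucose, and 2 rose and 0 fell on 60 kPa. PHAX then passed on 60 kPa alone (0.51) and RUVBL2 in neither comparison. Of 26 genes of ribosome biogenesis and RNA polymerase I, 7 rose and 2 fell for glucose and 6 rose and 0 fell on 60 kPa, DDX21, a nucleolar helicase, among them (0.68 and 0.77, with GC correction 0.17 and 0.33, the second passing). With GC correction 2 of the 26 rose and 0 fell for glucose, and 5 rose and 1 fell on 60 kPa.

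Factors of nonsense-mediated decay, which degrades spliced host RNAs, gave 3 of 14 higher and 0 lower in each of these comparisons. Both share the 400 Pa libraries. Counts of 3 of 14 lie near the shares of all genes called higher, 17.6% for glucose and 15.1% on 60 kPa. MAGOH, a subunit of the exon junction complex, was at 0.77 for glucose (adjusted p 0.00651, limma) and 0.78 on 60 kPa, UPF2 at 0.60 and 0.68 and SMG1, the kinase of UPF1, at 0.57 and 0.57. With GC correction 1 and 2 of the 14 passed. Of 17 regulators around mTORC1, 3 rose and 4 fell for glucose and 2 rose and 4 fell on 60 kPa, with AKT1S1, an inhibitory subunit of mTORC1, at -0.85 and -0.52 and DDIT4, another inhibitor of the pathway, at 0.07 and -0.38 (adjusted p 0.0331, limma). With GC correction 1 of the 17 rose and 1 fell for glucose, and 1 rose and 2 fell on 60 kPa. AKT1S1 then passed in neither comparison, and DDIT4 passed as higher for glucose (0.32) and not on 60 kPa. Of 5 long noncoding RNAs without a snoRNA, listed as nuclear-retained, 3 rose and 0 fell for glucose, among them NORAD (0.82) and OIP5-AS1 (0.60), which are known mainly from the cytoplasm. On 60 kPa 0 rose and 1 fell, NEAT1 (-0.72), the scaffold of paraspeckles. NORAD and NEAT1 passed with GC correction and OIP5-AS1 did not (0.04). In that fit 1 of the 5 rose and 0 fell for glucose, and 0 rose and 2 fell on 60 kPa.

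The glucocorticoid receptor list is given because of the link drawn between this receptor and GAS5. Of its 12 genes, 4 rose and 0 fell at 25 mM glucose and 0 rose and 5 fell on 60 kPa, where GAS5 was at 0.45 and -0.39. With GC correction the counts were 3 and 0 for glucose and 0 and 6 for stiffness. GAS5 itself passed for glucose and not on 60 kPa (adjusted p 0.0546, limma). With GC correction it passed on 60 kPa and not for glucose. Among all genes, 17.6% were called higher for glucose and 6.15% lower on 60 kPa, or 2.72% and 4.4% with GC correction. TSC22D3, a glucocorticoid-induced leucine zipper gene, was at 0.33 for glucose (adjusted p 0.0411, limma) and fell on 60 kPa by 1.28 (adjusted p 0.000569). DUSP1, a phosphatase of MAP kinases, was at 0.10 and fell on 60 kPa by 0.57 (adjusted p 0.00752), and CEBPD, a transcription factor, was at -0.12 and fell by 0.93 (adjusted p 0.0154). In the direct comparison of 60 kPa with 25 mM glucose, 0 of the 12 genes rose and 5 fell, where 1.32% of all genes were called lower. Of 4 tested genes found in growth arrest screens or used beside them as stress markers, 0 changed for glucose and 1 fell on 60 kPa, DDIT3 (-0.78, adjusted p 0.0334, limma), with GC correction an adjusted p of 0.0615.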

How the data were processed

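Messenger RNA libraries of MCF10A were made from TRIzol extracts, per the labels, 2 per group. Reads were aligned to hg19; STAR, HOMER and DESeq2 are named in the submitters' processing notes, without versions. The FPKM values were made by the authors from exon tags, per the file headers, with analyzeRepeats.pl of HOMER, for 1 transcript per gene and with no strand option. The deposited log2 values and the authors' log2 fold changes, p-values and adjusted p-values of 2 comparison tables were made by getDiffExpression.pl of HOMER (per the file headers) and count longer transcripts for most hosts. The header reads the libraries from directories named by single letters, except the deeper 1 kPa library, whose directory has a placeholder name; column headings gave the groups. Totals of mapped reads stand in the headers for 6 libraries, and those of the 4 libraries on 1 and 6 kPa were recovered from the steps of their FPKM values.

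With limma (version 3.58.1, R 4.3.3), log2(FPKM + 1) of the 12820 genes averaging 0.5 FPKM or more was fitted with a variance trend, with all 10 libraries in 5 groups and 5 residual degrees of freedom, and to a slope per 10-fold of stiffness. P-values were adjusted by Benjamini-Hochberg over all genes. The pseudocount of 1 FPKM makes fold changes of low genes slightly too small. FPKM, exon length and library totals gave back whole reads; 100% of tested values lay within 0.12 of a whole number. GC content (12650 genes) came from GENCODE transcripts, and each library was corrected for its own GC trend as an alternative. Other alternatives were a pseudocount of 0.1, no filter, a minimum mean of 5 FPKM, centring by trimmed mean of M values (TMM), fits to 2 groups only, the deposited log2 values, each library left out and, chosen after seeing the data, voom on recovered reads. Reads were simulated for 60 kPa against 400 Pa with 200 changed genes of 12820. Of genes changed by 2-fold, 98% were called. Of those changed by 1.5-fold upward and downward, 48% and 38% were called, and of unchanged genes 0.0951%. The simulated reads had no trend with GC content, unlike the real libraries, so these rates do not describe errors that come with such trends. The members and gene lists were chosen with earlier results of these data known. Named genes are all members, up to 3 called genes of the highest level per list, and the 5 genes most alike; other genes singled out were chosen after their values were seen. The files hold no counts, so limma took the place of a planned count test.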

Additional observations from a re-analysis of the deposited data

How the results depend on the processing

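Counts of hosts called are given as higher or lower; the cause of each change below was not tested. For 60 kPa against 400 Pa (2 higher, 0 lower), TMM centring gave 1 higher and 1 lower and GC correction 1 and 2. The deposited log2 values gave 1 and 3 and voom 1 and 2. A minimum mean of 5 FPKM gave 1 lower and the 4 libraries alone 2 lower. Of all genes, TMM centring called 1480 higher and 1381 lower of 12820, and GC correction 713 and 557 of 12650. The deposited log2 values called 3382 and 3207 of 12720, and voom 2528 and 2526 of 12820. A minimum mean of 5 FPKM called 1769 and 735 of 7702, and the 4 libraries alone 2576 and 1319 of 12820. For 25 against 5 mM glucose (7 higher), GC correction gave 2 and no filter 3. Of all genes, 344 of 12650 and 1534 of 19954 were called higher in these settings. For 60 kPa against 25 mM glucose (1 lower), a minimum mean of 5 FPKM gave 2, TMM centring 3 and GC correction 2. Voom gave 3 and the 4 libraries alone 0. These 5 settings called lower, in that order, 138 of 7702 genes, 222 of 12820, 405 of 12650, 404 of 12820 and 10 of 12820. For 60 against 1 kPa (1 lower), no filter gave 0 and a minimum mean of 5 FPKM and voom 2 each. They called lower, in that order, 424 of 19954 genes, 627 of 7702 and 2177 of 12820. For 6 kPa against 400 Pa (0 higher), a minimum mean of 5 FPKM gave 1 and GC correction 2, where 24 of 7702 and 120 of 12650 genes were called higher. For 1 kPa against 25 mM (4 lower), no filter and TMM centring gave 2 each and GC correction 0. They called lower, in that order, 1326 of 19954 genes, 1451 of 12820 and 111 of 12650. For 6 kPa against 25 mM (4 lower, 0 higher), no filter gave 1 lower, GC correction 2 and the 4 libraries alone 0. They called lower, in that order, 362 of 19954 genes, 307 of 12650 and 0 of 12820. SNHG15 was higher there with a minimum mean of 5 FPKM, TMM centring and GC correction (1 each). These called higher 635 of 7702 genes, 915 of 12820 and 427 of 12650. For the slope (1 lower), no filter gave 0, and a minimum mean of 5 FPKM, TMM centring, GC correction and voom 2 each. They called lower, in that order, 479 of 19954 genes, 735 of 7702, 1464 of 12820, 439 of 12650 and 1925 of 12820.

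Leaving out 1 library at a time leaves 1 library in a group. Calls of hosts came and went with the library left out, and so did calls of all genes. Counts of hosts called in these fits are therefore not read as results about the hosts. For 60 kPa against 400 Pa the log2 difference ran from 0.46 to 0.48 for SNHG1 and from 0.40 to 0.52 for SNHG12. For glucose it ran from 0.41 to 0.49 for GAS5, 0.38 to 0.52 for SNHG8 and 0.51 to 0.68 for SNHG12.

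Signs turned only in log2 differences that had not passed, except SNHG6 and SNHG8 for glucose. With 60 kPa against 400 Pa, SNHG6 was at -0.068 with TMM centring, -0.31 with GC correction, -0.025 in the deposited log2 values and -0.058 with voom, and SNHG8 at -0.053, -0.33, -0.11 and -0.032. GC correction also turned SNHG5 (-0.14) and SNHG15 (0.033) there and, for glucose, SNHG6 (-0.011), SNHG8 (-0.0060), SNHG7 (0.29) and SNHG15 (0.028). With 1 library left out, values ran for 60 kPa against 400 Pa from -0.021 to 0.13 for SNHG6, -0.065 to 0.21 for SNHG8, -0.28 to 0.0021 for ZFAS1 and -0.27 to 0.072 for SNHG15, with -0.0046 for SNHG6 and -0.00020 for SNHG8 without the deeper 400 Pa library, for glucose from -0.24 to 0.13 for SNHG7 and -0.22 to 0.015 for SNHG15, and for 60 kPa against 25 mM from -0.17 to 0.17 for SNHG15.

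No paired analysis was possible because the columns carry no replicate numbers. The planned fits with edgeR and DESeq2 were not run because the files hold no counts. Depth limits SNHG15 and SNHG12 most, with 32 and 40 reads in the shallower 6 kPa library.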
